A study of Mus musculus with 2 samples.

Results

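1700001L05Rik (ENSMUSG00000075511.9) is a long intergenic noncoding RNA gene on the minus strand of mouse chromosome 15, 83353847 to 83367282 of GRCm38, and a large source of reads of piRNA size in these testis libraries. It is 1 of 55450 annotated genes and was chosen by its high count of reads of piRNA size in these tables, so its level is a description with no test. Its reads are those of 24 to 32 nt that matched, with 0 mismatches and on either strand, any of its 4 transcripts in GENCODE M21. The labels describe small RNA of 23 dpp testes from C57BL/6 mice of the genotypes Stambp-ps1+/- and Stambp-ps1-/-, 1 sample each. How the Stambp-ps1 allele was made, and whether animals were pooled, is not given in the sources used here. Both of the 2 deposited tables of read sequences are recorded under the Stambp-ps1-/- sample, and neither was put in a genotype group. They are named by a word in their titles as the KO table and the het table, which the plots write as KO-named and het-named. With 1 library per table there was no replicate and no test between the tables. The ranges in parentheses are exact 95% binomial intervals, which measure counting error alone: without molecular identifiers, PCR copies were counted as if each were its own molecule.

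piRNAs are small RNAs of the germ line that are bound by PIWI proteins. Pachytene piRNAs appear when male germ cells enter meiosis and are cut from long single-stranded noncoding transcripts that lie between genes. In the accepted pathway an endonuclease on the mitochondrial surface cuts the precursor, a PIWI protein holds the new 5′ end, most often a U, and an exonuclease trims the 3′ end until it is covered by the protein. MILI and MIWI, the PIWI proteins of this stage, hold piRNAs of different length, MIWI the longer ones. piRNA pairs made by reciprocal slicing need reads on both strands, whereas cutting along a precursor needs 1 strand.

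The sequences below are the leading reads of 7 of the 10 leading start positions. The first is printed as that of the leading start, and the others because they show how neighbouring starts run to the same or a nearby 3′ end. Each is a deposited read that matches the minus strand of GRCm38 at the coordinates given, written 5′ to 3′ with T for U and its first base in capitals. Positions count from 1 at the 5′ end of transcript 1700001L05Rik-203.
start 3839, chr15:83354948-83354977: Tgatactcggaatttggcacagctctgctt
start 3879, chr15:83354908-83354937: Tataattctagttctcacacccatggtacc
start 3881, chr15:83354908-83354935: Taattctagttctcacacccatggtacc
start 3544, chr15:83355242-83355272: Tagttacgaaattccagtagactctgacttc
start 3548, chr15:83355242-83355268: Tacgaaattccagtagactctgacttc
start 4420, chr15:83354368-83354396: Ctcagaactagtgtatatttggccaaaag
start 4422, chr15:83354366-83354394: Cagaactagtgtatatttggccaaaagga
The next stretches of the precursor hold 9 of the 10 leading starts, all but 3943. Capitals mark the bases in them at which at least 5000 reads of the summed tables began.
chr15:83355242-83355280: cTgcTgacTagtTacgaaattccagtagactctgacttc
chr15:83354908-83354981: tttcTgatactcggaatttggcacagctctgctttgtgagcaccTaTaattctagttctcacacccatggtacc
chr15:83354332-83354400: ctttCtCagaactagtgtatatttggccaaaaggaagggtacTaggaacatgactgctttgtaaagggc
Most of the marked starts lie on a T and within 4 nt of another marked start. The C pair at 4420 and 4422 does not lie on a T, and the starts at 3839, the leading one, and 4458 stand alone.

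The tables held 54384974 (KO table) and 62773871 (het table) reads of 18 to 32 nt, of which 43173943 and 47015300 were of 24 to 32 nt. Germ cell miRNAs were plentiful, with the 8 listed ones between 186 and 7619 reads per 1000000 reads of the table (RPM) in the KO table and between 140 and 8010 RPM in the het table. The 5 listed miRNAs of liver, muscle and blood summed to 19.4 and 11.1 RPM, with the liver miRNA Mir122 at 0.

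Reads of 1700001L05Rik were abundant in both tables. They numbered 263717 in the KO table, which was 4849 RPM (4831 to 4868). In the het table there were 265472 reads, which was 4229 RPM (4213 to 4245). By reads of 24 to 32 nt in the summed tables the gene had rank 3 among the annotated genes, and it made up 0.611% and 0.565% of all reads of that length.

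On the RPM scale the gene was slightly higher in the KO table, by the same amount as the typical gene, but per miRNA read (reads of 19 to 25 nt on annotated miRNA hairpins) it was not. The KO-table RPM divided by the het-table RPM was 1.15 (1.14 to 1.15), a log2 ratio of 0.20. The median log2 ratio over the 4552 genes with at least 200 such reads was 0.20, and the lower and upper 5% tails were at -0.13 and 0.50. Of these genes 0.351% (16) differed by at least 2-fold, 0.022% (1) higher and 0.33% (15) lower in the KO table, and 1700001L05Rik was not among them. With genes of at least 50 reads the number past 2-fold was 73. The direction depends on the scale: per read of 24 to 32 nt the log2 ratio was 0.11 with the median of all genes at 0.12, and per miRNA read it was -0.05 with the median at -0.05. The latter scale lowers every log2 ratio in this account by 0.25, and the former by 0.08. In bulk testis RNA, a difference in the number of cells making these piRNAs and a difference in piRNA per cell cannot be told apart.

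The reads came from the annotated strand almost without exception. There were 2 antisense reads in each table, so 99.999% of reads were sense in either. All but 15 KO-table and 26 het-table reads matched no other annotated gene. Whether the reads also match the genome outside annotated transcripts was not tested. With so few antisense reads the overlap of opposite strands, the mark of reciprocal slicing, was not computed.

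The longest transcript, 1700001L05Rik-203, held 94.3% of the KO-table and 94.1% of the het-table reads. It is 4969 nt long and has 3 exons, and its long last exon runs from 83353847 to 83358037. The part of that exon that lies past the end of the transcript 1700001L05Rik-201, 3713 nt at chr15:83353847-83357559, held 92.04% and 91.6% of all reads. Its density was 1202 RPM per kb in the KO table and 1044 in the het table. The other parts of the gene were much thinner. Exon 1 had 97.4 and 75.1 RPM per kb, exon 2 had 113 and 98.3, and exon 3 of 1700001L05Rik-201 had 295 and 228. The stretch of 913 nt just upstream of the last exon of 1700001L05Rik-203, which is part of the last exon of 1700001L05Rik-201, had 245 and 231 RPM per kb.

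Reads across splice junctions gave the exons that were joined. The junction from exon 2 to exon 3 of 1700001L05Rik-201 was crossed by 713 KO-table and 680 het-table reads. The next junction of that transcript, into its last exon at 83358950, was crossed by 1167 and 970 reads. A junction from exon 2 straight to 83358950, annotated in 1700001L05Rik-202 and 1700001L05Rik-204, was crossed by 323 and 232 reads. In contrast, the junction from exon 2 to the last exon of 1700001L05Rik-203 at 83358037 had 1 and 3 reads. Reads that ran unspliced over that exon's edge, as in 1700001L05Rik-201, numbered 5 and 15, and reads spliced there from exon 3 of 1700001L05Rik-204 numbered 48 and 35. Thus most reads lay in a stretch of which all but the first 26 nt is annotated in 1700001L05Rik-203 alone, while the reads over junctions fell mainly on those of the other transcripts. The full structure of the precursor was not tested.

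Along 1700001L05Rik-203 reads began at 2184 of 4969 positions in each table, but a few short stretches held most of them. The first 2000 nt held 4.26% of the reads of this transcript in the KO table and 4.32% in the het table. Positions 3501 to 4500 held 69.3% (69.1 to 69.5) and 68.7% (68.5 to 68.9). Within them the 100 nt from 3501 held 20.0% in both tables, the 100 nt from 3801 held 23.4% and 22.0%, and the 100 nt from 4401 held 11.5% and 11.8%. All 50 bins of 100 nt held reads. Of the 42 bins with at least 500 reads, 38 had a higher RPM in the KO table, with log2 ratios from -0.19 to 0.48; per miRNA read 14 of them were higher there.

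**Figure D1:**
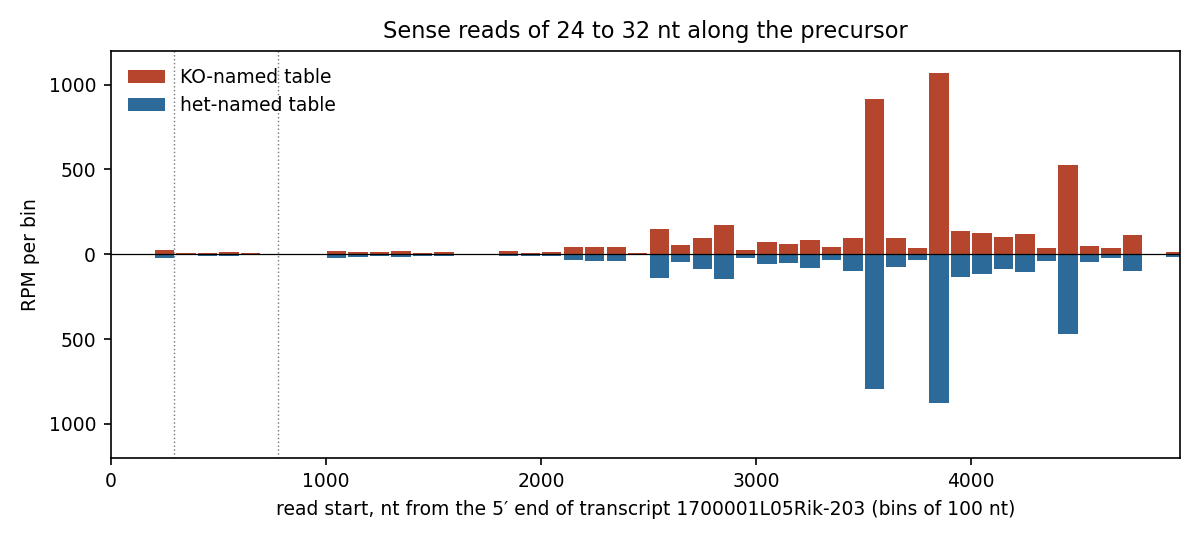
RPM of sense reads of 24 to 32 nt by the position of their start on transcript 1700001L05Rik-203, in bins of 100 nt, with the KO table drawn upward and the het table downward; dotted lines mark the exon edges. The bins from 3501, 3801 and 4401 stand out in both tables, at 917, 1070 and 528 RPM in the KO table and 796, 876 and 471 RPM in the het table.

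A few start positions held much of the output. The 10 leading starts held 43.4% (43.2 to 43.6) of the sense reads in the KO table and 43.1% (42.9 to 43.3) in the het table. It took 17 starts in either table to reach 50% of the reads, and 232 and 234 starts to reach 90%. Since a start pools all lengths that begin there, single sequences held less: the 10 leading sequences held 21.3% in both tables, and 57 KO-table and 58 het-table sequences made up 50%. At the other end, 3106 of 8076 sense sequences in the KO table and 3105 of 8182 in the het table were read once. Of 10564 distinct sequences 5698 were in both tables, and these held 98.8% and 98.7% of the reads.

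The leading start was the U at position 3839 (chr15, 83354977), with 26252 KO-table and 22008 het-table reads, or 483 and 351 RPM. It made up 9.95% of the KO-table and 8.29% of the het-table sense reads. The next, at 3881, had 17380 and 18668 reads (320 and 297 RPM), and the start at 3548 had 15813 and 15919 (291 and 254 RPM). The start at 3544 had 13126 and 13476 reads (241 and 215 RPM). These 4 lie in the stretches from 3501 and 3801 and begin with U. The C starts at 4420 and 4422 followed with 178 and 158 RPM and with 150 and 130 RPM. The starts at 3540, 4458, 3943 and 3879 lay between 84.0 and 120 RPM in both tables.

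The leading single sequence was not a form of the leading start. It was the 28-nt read from 3881, with 12455 reads in the KO table and 13461 in the het table, which was 4.72% and 5.07% of the sense reads. The 30-nt read from 3839 came after it with 8672 and 8231 reads. The 27-nt read from 3548 had 5406 and 6312 reads. At 3839 the leading length held 33.03% and 37.4% of the reads of that start, less than the leading length at 3881.

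The lengths of the reads differed more from start to start than between the tables. At 3881, 71.7% of KO-table and 72.1% of het-table reads were 28 nt long, and at 3879, 74.8% and 72.6% were 30 nt long. Both forms stop at position 3908. At 3548 the reads split between 27 nt (34.2% and 39.7%) and 30 nt (31.8% and 28.7%). At 3544 the leading length, 31 nt, held 27.4% and 28.4%. At 4458 and 3943, 85.2 to 86.0% of reads were of 24 to 28 nt, the short class, whereas at 3879 that share was 2.35% and 1.90%.

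**Figure D2:**
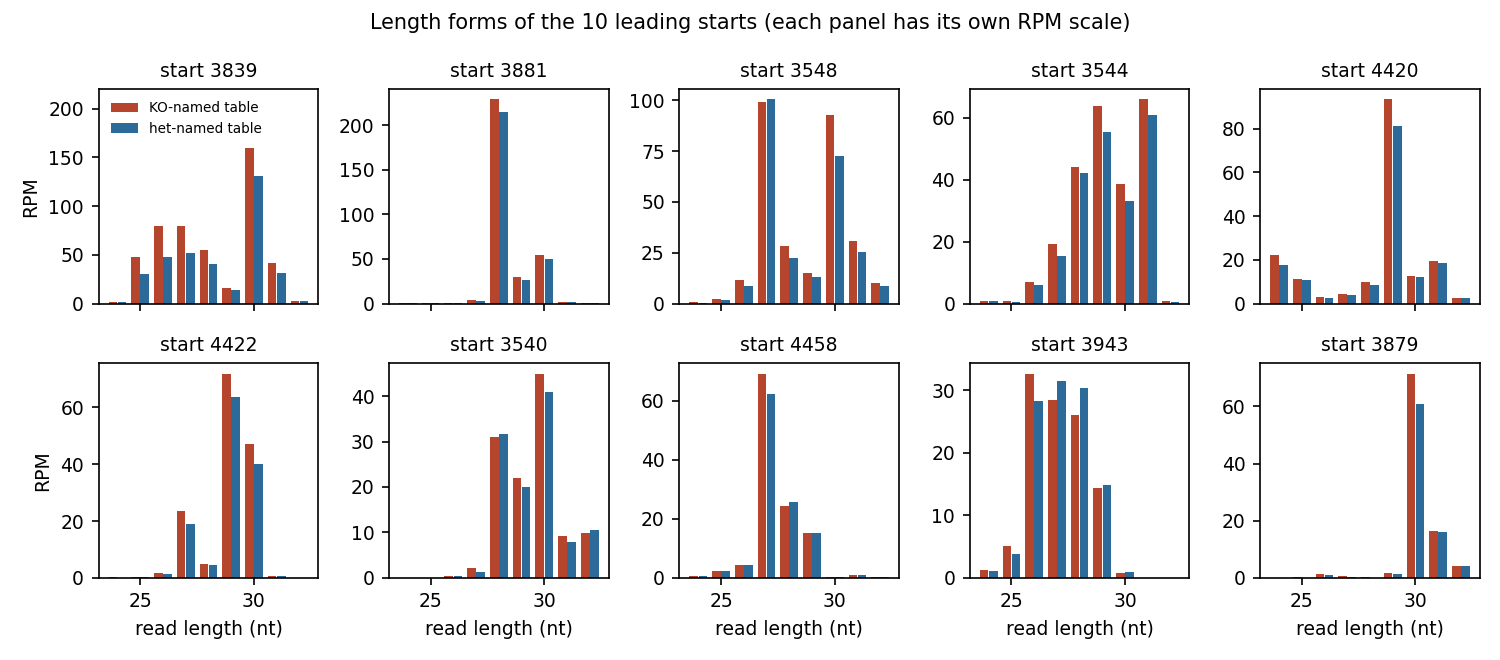
RPM by read length for each of the 10 leading starts, named by position on 1700001L05Rik-203, in the KO table (red) and the het table (blue); each panel has its own RPM scale. Starts 3881, 3879 and 4420 have a single main length of 28, 30 and 29 nt, while starts 3839 and 3548 have a long and a short form.

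The 3′ ends of neighbouring starts often coincided. The leading 3′ end, position 3908, was reached by 16583 KO-table and 17559 het-table reads. Of these 75.1% and 76.7% began at 3881 as 28-nt reads, and 23.5% and 21.8% began at 3879 as 30-nt reads. The end at 3574 had 9773 and 10921 reads, of which 55.3% and 57.8% came from 3548 (27 nt) and 36.8% and 35.04% from 3544 (31 nt). The end at 4448 was shared by 4420 (71.0% and 72.0%) and 4422 (17.8% and 16.8%), and the end at 4450 by 4422 (72.1% and 71.4%) and 4420 (19.4% and 20.7%). Of the 10 leading 3′ ends, 5 drew more than 5% of their reads from a second start in both tables. Among these the end at 3868 was close to that bound, with 5.21% and 5.08% from its second start. It drew 93.9% and 93.8% from 3839. The other 5 leading ends drew 83.5 to 97.7% of their reads from a single start.

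The 3′ ends were less concentrated than the starts. The 10 leading ends held 26.8% of KO-table and 26.6% of het-table sense reads, against 43.4% and 43.1% for the starts. It took 33 and 34 ends to reach 50% of the reads.

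In length the reads peaked at 30 nt, with 21.7% (21.6 to 21.9) in the KO table and 21.6% (21.4 to 21.7) in the het table. The class of 29 to 31 nt, usual for MIWI, held 47.8% (47.6 to 47.9) and 48.0% (47.8 to 48.2). The class of 26 to 28 nt, usual for MILI, held 42.7% and 42.5%. Among all reads of 24 to 32 nt in the tables, whatever their source, these shares were 48.8% and 47.2% for the long class and 32.3% and 32.2% for the short one. Beside the larger share at 26 to 28 nt, the gene had smaller shares than all reads at 24, 25, 31 and 32 nt. At 32 nt it had 2.62% and 2.72% against 9.42% and 9.59%, at 31 nt 10.4% and 10.5% against 14.6% and 14.3%, and at 24 nt 2.10% and 2.07% against 4.17% and 4.999%. The comparison is not like for like: the gene's reads matched exactly, while all reads include those with mismatches. Left out here were reads of the gene ending in an unmatched U: 10112 and 10008 at 31 nt, 4196 and 4275 at 32 nt. Such reads were found at every length. For the gene's length profiles in the 2 tables to match, 1.09% of reads would have to change length.

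**Figure D3:**
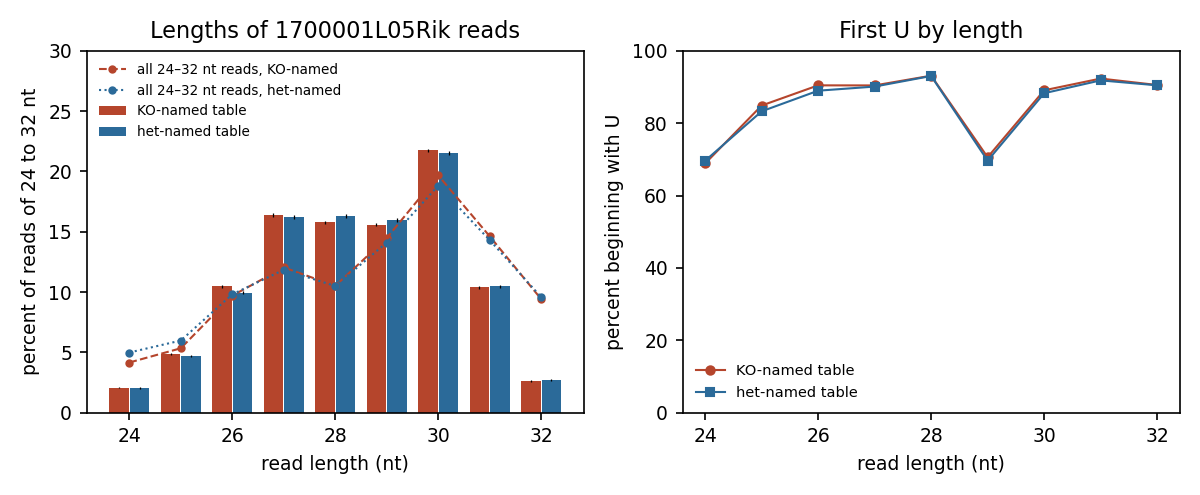
Left, percent of the gene's exactly matched sense reads at each length from 24 to 32 nt (bars with exact 95% intervals). Lines give all reads of that length range in the table, matched or not. Right, percent of the gene's reads at each length that begin with U. The bars peak at 30 nt with 21.7% and 21.6%, and the share with a first U dips at 29 nt to 70.6% and 69.6%.

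A first U, the usual mark of primary piRNAs, was found in 86.9% (86.8 to 87.1) of sense reads in the KO table and 86.2% (86.1 to 86.4) in the het table. U makes up 29.04% of the bases of 1700001L05Rik-203. Counted as distinct sequences the share was 63.98% and 64.2%. A read began at 74.1% and 73.3% of the U positions of the transcript and at 31.6% and 31.96% of the others. A first C, in 8.35% and 8.41% of reads, came mostly from the 2 starts at 4420 and 4422, which made up 81.1% and 80.8% of it. Without these the share with a first U was 93.3% and 92.5%, and at 29 nt, the main length of the pair, it was 90.3% and 88.6% in place of 70.6% and 69.6%. A first A, in 2.67% and 3.04%, had its main source in the start at 3451, with 2532 and 3421 reads. At the tenth base A was found in 26.6% and 27.1% of reads, near its 25.2% of the transcript.

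When a precursor is cut end to end, the next piRNA starts 1 nt after the untrimmed 3′ end of the last. The base after that untrimmed end is often U. Trimming moves the 3′ end away from the next start, so trimmed reads need show neither mark. Whether this precursor was cut end to end was not tested. In 1700001L05Rik the base after the 3′ end was U in 34.2% (33.99 to 34.4) of KO-table and 34.4% (34.2 to 34.6) of het-table reads, against 29.04% of the transcript. Of the distinct sequences 29.9% and 29.2% had it. Among the 10 leading 3′ ends, 3 were followed by a U.

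A start lay directly after a 3′ end less often than an even spread over distances would give. Pairs of a 3′ end and a downstream start within 50 nt were counted, each weighted by the product of its reads. An even spread would put 2% of pairs at each distance. The distance of 1 nt held 0.599% of KO-table and 0.636% of het-table pairs and ranked 37 and 35 of 50. The most frequent distance was 13 nt, with 11.5% and 11.9%, and 86.3% and 87.5% of that came from the end at 3868 and the start at 3881 alone. The distance of 35 nt held 6.63% and 8.30%, of which the end at 3908 and the start at 3943 gave 91.7% and 93.5%. The values rest on few positions: without the reads of the 10 leading sequences 1 nt held 1.32% and 1.41%, and with each pair of positions counted once it held 2.01% and 1.99%, with all 50 distances between 1.93 and 2.07%.

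Starts were spaced in the same uneven way. Of all pairs of starts within 60 nt, weighted by reads, 17.0% of KO-table and 15.8% of het-table pairs lay 42 nt apart. The starts at 3839 and 3881 gave 93.8% and 93.7% of these. The distance of 4 nt came next with 11.9% and 12.8%, of which the pair 3544 and 3548 gave 60.8% and 60.4%.

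**Figure D4:**
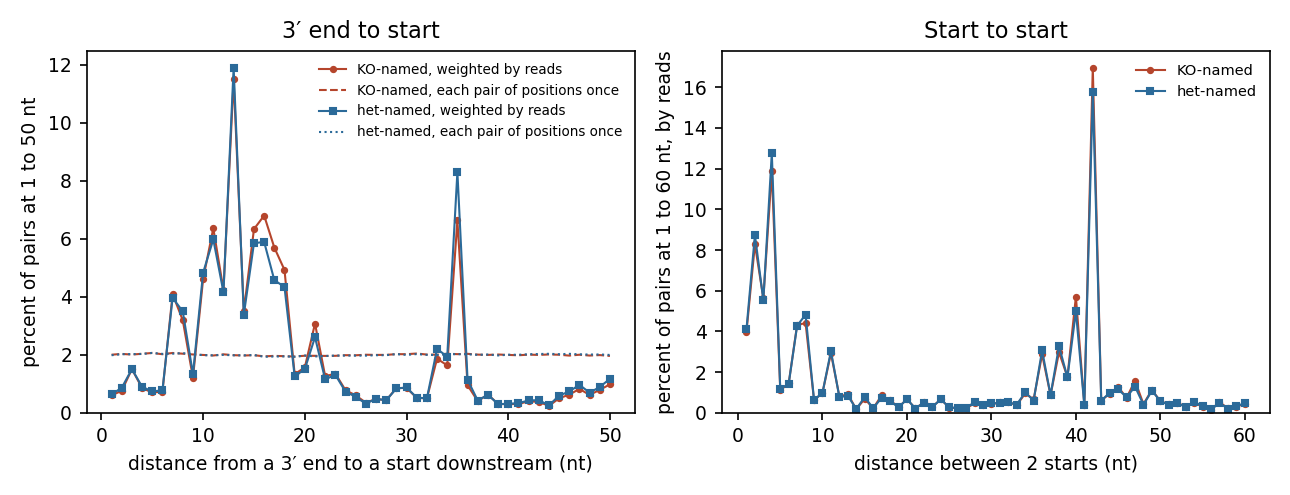
Left, percent of pairs of a 3′ end and a downstream start at each distance from 1 to 50 nt, weighted by reads (lines with points) or with each pair of positions counted once (broken lines); right, percent of pairs of starts at each distance from 1 to 60 nt, weighted by reads. The weighted lines peak at 13 nt on the left and at 42 nt on the right in both tables, and the unweighted lines stay near 2%.

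The pattern of starts was nearly the same in the tables, with some single starts apart from the rest. In all, 5.78% of reads would have to move to another start for the tables to match, and 8.75% to another sequence. The 129 starts with at least 500 reads in the summed tables held 83.6% and 83.4% of the reads, and 120 of them were on a U. Their log2 ratios of KO-table over het-table RPM had a median of 0.21 and ran from -0.38 to 0.73. None was past 2-fold, 113 were above 0 and 16 below (53 above 0 per miRNA read), and for 55 of them the counting interval did not hold the ratio of the whole gene. Since the intervals leave out PCR and library differences, that count does not measure a difference between animals.

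The starts with the highest log2 ratios were 4117 (0.73, from 295 and 206 reads), 3509 (0.72, from 600 and 421) and 3487 (0.67, from 424 and 307). The lowest were the start at genome position 83358816, outside 1700001L05Rik-203 (-0.38, from 413 and 622 reads), 4312 (-0.29, from 523 and 736) and 3451 (-0.23, from 2532 and 3421). The start at 3451 is on an A.

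Among the 10 leading starts, 3839 had the highest ratio and 3943 the lowest. At 3839 the ratio was 1.38 (1.35 to 1.40, log2 0.46), and at 3943 it was 0.984 (0.95 to 1.02, log2 -0.02). The other 8 lay between log2 0.07 and 0.21. Per miRNA read 1 of the 10, the start at 3839, was above 0. At 3839 the excess was larger in the short forms: reads of 25 to 28 nt had a ratio of 1.53 (1.5 to 1.57) from 14212 and 10691 reads, and reads of 29 to 32 nt had 1.23 (1.19 to 1.26) from 11944 and 11244. The largest was at 26 nt, with 4338 and 2993 reads (ratio 1.67, 1.60 to 1.75). Over the whole gene the ratio was 1.16 (1.15 to 1.16) at 24 to 28 nt and 1.14 (1.13 to 1.15) at 29 to 32 nt.

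**Figure D5:**
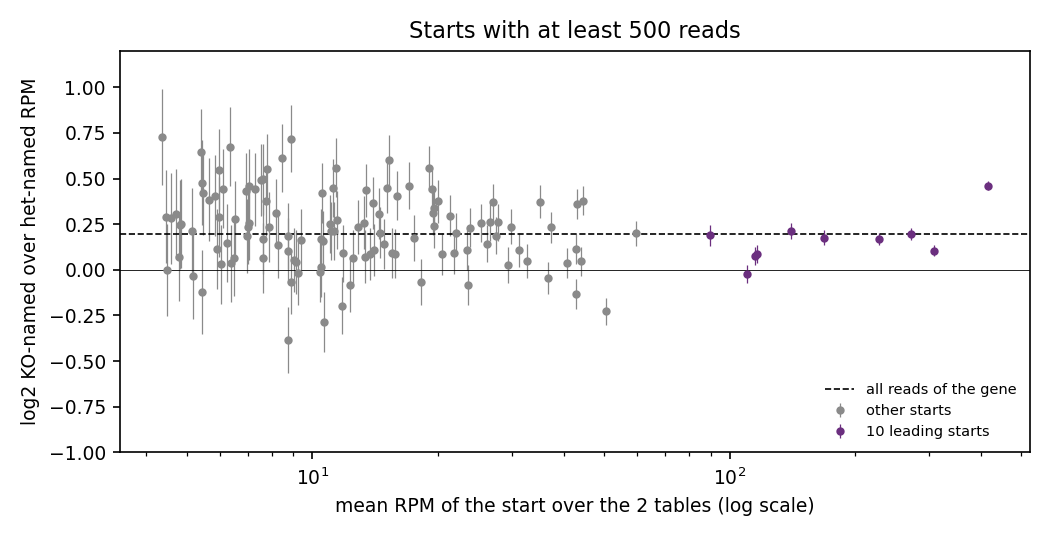
Log2 ratio of KO-table over het-table RPM for each of the 129 starts with at least 500 reads, against the mean RPM of the start on a log axis, with exact 95% counting intervals; the broken line is the whole gene at 0.20. The 10 leading starts lie between -0.02 and 0.46, and all 129 lie between -0.38 and 0.73.

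Shorter reads of the gene were few and also began mostly with U. Reads of 18 to 23 nt numbered 6231 in the KO table and 6665 in the het table, or 115 (112 to 117) and 106 (104 to 109) RPM. Of the sense ones 84.3% and 84.8% began with U, and 31.2% and 29.7% began at one of the 10 leading starts. Their ratio was 1.08 (1.04 to 1.12).

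Set beside other piRNA sources, 1700001L05Rik was alike in level ratio. The 9 genes listed for comparison, chosen with earlier results known, had log2 ratios from -0.28 (Smyd5) to 0.33 (Gm5878) with a median of 0.20. Of these, 7 were above 0 (2 per miRNA read) and 0 past 2-fold, against the 0.351% of all genes given above. Being above 0 does not set them apart. Most of the 4552 genes also lay above 0 on the RPM scale, where the middle gene was at 0.20. Per miRNA read the middle gene was at -0.05, so most genes lay below 0 there. The largest 2 sources, Gm49794 and Gm21269, were at 0.25 and 0.20. Reads of a listed gene were counted in full even where they also matched other genes. Of the Gm18609 reads 54.6% (KO table) and 53.4% (het table) matched no other annotated gene, and of the Gm49794 reads 78.9% and 78.0%. The reads of Gm18609 and Smyd5 lay mainly on the antisense strand. Among the 7 listed genes with at least 50000 reads in each table, the share of reads with a first U ran from 87.2 to 96.6%, all above the 86.9% and 86.2% of 1700001L05Rik. Their 10 leading starts held 22.3 to 59.6% of reads, a range that takes in its 43.4% and 43.1%. The distance of 1 nt from 3′ end to start held 0.974 to 4.09% of pairs in them, and 1700001L05Rik with 0.599% and 0.636% lay below. That share rests on few positions: without its 10 leading sequences 1700001L05Rik had 1.32% and 1.41%, inside that range. The like values for the other genes are not given here. In first U and in pairs at 1 nt, the remaining 2 listed genes, with 5796 to 8731 reads, were not always above 1700001L05Rik. Wdfy3 had a first U in 91.5% of KO-table and 84.8% of het-table reads, the latter below 1700001L05Rik, and 1.45% and 2.13% of its pairs at 1 nt. Smyd5, with 98.7% and 98.8% of its reads in 10 sequences, had a first U in 99.5% of reads in both tables and 50% and 0% of its pairs at 1 nt. The bound of 50000 reads was chosen after the values were seen, and no test of these differences was possible with 1 library per table.

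By length and first base together, the gene most like 1700001L05Rik was Gm21269, a noncoding piRNA source on chromosome 7. The likeness was taken over 36 combinations of 9 lengths and 4 first bases in the summed tables, as the share of reads that would have to change class. That share was 11.8% for Gm21269, 12.2% for Strbp, which encodes an RNA-binding protein of the testis, and 12.3% for 4933412L11Rik on chromosome 6. The median over the 171 other genes with at least 10000 reads was 26.2%. All 3 peaked at 30 nt, with a first U in 87.5 to 91.4% of reads.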

How the data were processed

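Total RNA of testes was run on a gel and RNA of 15 to 40 nt was made into directional small RNA libraries with the TruSeq Small RNA kit, per the labels' protocols. Each deposited table lists distinct read sequences with the raw count of reads without any scaling: the values are whole and start at 1. Of adapter trimming and filters nothing is given in the sources used here.

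Reads were matched exactly to all transcripts of GENCODE M21 (GRCm38) on both strands, and a place was a distinct genome position of the read's start. For counts over all genes a read was shared over its places, sequences with over 2000 matches were left out, genes needed 200 reads, and 0.5 reads were added before log2. For 1700001L05Rik each read counted in full. RPM is per 1000000 reads of the table. Introns and unannotated flanks were not searched. Intervals are Clopper-Pearson at 95%, or the conditional binomial for ratios; 3 reads, the floor for a count of 0, correspond to 0.0552 RPM (KO table) and 0.0478 RPM (het table). The calculations were tested on simulated data. The tools were matplotlib 3.10.9, scipy 1.17.1, pandas 2.3.3 and numpy 2.4.6 under Python 3.11.15.

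The gene, the listed genes and the rules for naming starts and genes were chosen with earlier results of these data known. The rules named the 10 starts and 10 sequences with most reads, the 3 highest and 3 lowest ratios among starts with at least 500 reads, the 9 listed genes, and the 3 genes of at least 10000 reads nearest in length and first base. Other scalings, lengths, mismatches and ways of counting were tried.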

Additional observations from a re-analysis of the deposited data

How the results depend on the processing

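No paired analysis was possible because there is 1 library per table and neither table was put in a genotype group. The log2 level ratio of the gene, 0.20, became 0.11 per read of 24 to 32 nt and 0.10 with distinct sequences, and turned to -0.053 per miRNA read. With at least 50 reads per gene, 73 genes were past 2-fold in place of 16. In the pairs of values that follow, the KO table comes first. With reads of 26 to 32 nt, 87.5% and 86.8% began with U, 51.3% and 51.5% were of 29 to 31 nt, the 10 leading sequences held 22.9% and 22.8%, the 10 leading starts 44.5% and 44.4%, and 34.4% and 34.8% were followed by U. With up to 1 mismatch, 86.2% and 85.5% began with U and 49.2% and 49.5% were of 29 to 31 nt. On 1700001L05Rik-203 alone 48.6% and 48.9% were of 29 to 31 nt, and all het-table reads (100%) were sense. With each distinct sequence counted once, 99.975% and 99.976% were sense, 63.98% and 64.2% began with U, 34.9% and 35.9% were of 29 to 31 nt, 2.04% and 2.06% of pairs lay 1 nt apart, and 29.9% and 29.2% were followed by U. Without the 10 leading sequences, 87.7% and 86.9% began with U, 46.1% and 46.9% were of 29 to 31 nt, 1.32% and 1.41% of pairs lay 1 nt apart, and 31.4% and 31.5% were followed by U. Distances of 1 to 3 nt held 2.87% and 3.01% of pairs. The causes of these changes were not tested. The overlap of opposite strands was not run, since it needed 100 antisense reads and each table had 2. Starts with few reads are limited by depth: the counting interval of the log2 ratio is widest there.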

Other observations

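Many reads of 1700001L05Rik matched the transcript except at their last base, and that base was mostly U. Reads of 24 to 32 nt with exactly 1 mismatch on the sense strand numbered 45135 in the KO table and 45468 in the het table, and in 76.5% and 77.2% of them the mismatch was the last base. These 34545 and 35089 reads came to 13.1 and 13.2 per 100 exact reads. At each of the first 23 bases, by comparison, a mismatch was found in 166 to 842 KO-table and 164 to 861 het-table reads. At the second-last base it was found in 1347 and 1381 reads. The unmatched last base was U in 92.4% and 91.7%, A in 6.24% and 6.70%, and C or G in the small rest.

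Reads whose unmatched last base was U, called reads with an added U here, were spread unevenly over the leading starts. They came to 58.2 (KO table) and 52.3 (het table) per 100 exact reads at 3540 and to 39.5 and 34.9 at 3943, but to 0.552 and 0.514 at 3881. The leading form with an added U at 3540 was 31 nt long and had 3702 and 3592 reads, more than the exact 30-nt form without it (2446 and 2565). At 3943 the form of 27 nt had 2130 and 2201 reads, against 1779 and 1773 for the exact 26-nt form. These forms are printed with the added U as T in capitals.
start 3540: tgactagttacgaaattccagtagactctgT
start 3943: taaagagcatctctgagggccctgagT
Of the reads with an added U 31.7% and 31.1% were 31 nt long and 22.3% and 22.7% were 30 nt long. Where the transcript itself has a U next, an added U cannot be told from a longer exact read. The main 3′ end of 3881 and 3879, at 3908, is such a place. Whether the unmatched U was part of the RNA or came from library making or adapter trimming was not tested. Whether the reads with an added U match elsewhere in the genome was also not tested, and the observation was made after the values were seen.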
